A study of Mus musculus with 32 samples.

Results

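The MHC class II presentation genes were followed across the cells of epididymal fat: 10 genes chosen by symbol, of 31053 genes in the deposited matrix, by a rule that uses symbols only. They are H2-Aa, H2-Ab1 and H2-Eb1 (called the surface chains here), Cd74 (the invariant chain), Ciita (the transactivator), H2-DMa, H2-DMb1 and H2-DMb2 (the peptide editor), and H2-Oa and H2-Ob (its inhibitor). The cells came from the stromal vascular fraction of C57BL/6 mice, the cells of fat left once mature adipocytes are removed. The 4 groups were CD169-DTR mice on a high fat diet (HFD DTR), wild-type mice on a high fat diet (HFD WT), CD169-DTR mice on a normal diet (ND DTR) and wild-type mice on a normal diet (ND WT). CD169-DTR mice carry a diphtheria toxin receptor named for CD169, the product of Siglec1, and the design aimed at loss of tissue resident macrophages. Each diet lasted 16 weeks, and all mice, WT included, received diphtheria toxin (DT) for 7 days, so no group was free of the toxin. CD45+ and CD45- cells were sorted apart and mixed in equal parts. The sort kept out much of the cells high in F4/80 (a macrophage surface protein) and monocytes high in Ly6C, so the macrophages and monocytes measured here are those it let through. Each group had 1 library (10x Genomics 3′ v3), and the sources used here do not give the age of the mice or how many were pooled. With no replicates there was no test. Every interval is a 95% interval for counting error, and differences describe these libraries, not mice.

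Class II molecules display peptides taken up from outside the cell to CD4+ T cells. Their alpha and beta chains pair in the endoplasmic reticulum around the invariant chain, whose last fragment is later exchanged for a peptide with the help of H2-DM, and H2-O holds H2-DM back. Dendritic cells, B cells and macrophages are the professional presenting cells. Ciita, a coactivator that binds no DNA itself, switches class II genes on through factors that sit on their promoters. These are the RFX complex on the X box and NF-Y on the Y box. C57BL/6 mice do not make the I-E alpha chain, so the H2-Eb1 transcript counted here encodes a beta chain without its usual partner. The name surface chains thus stands for transcripts in this report, not for protein at the surface.

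Of the 10 members, 8 lie on mouse chromosome 17 (GRCm38): H2-Oa at chr17:34092340-34095234, H2-DMa at chr17:34119541-34139101 and H2-DMb2 at chr17:34143307-34151555. Next along it come H2-DMb1 at chr17:34153072-34160230 and H2-Ob at chr17:34238903-34254414. The surface chains follow, with H2-Ab1 at chr17:34257689-34269419, H2-Aa at chr17:34282744-34287823 (the only one of the 8 on the minus strand) and H2-Eb1 at chr17:34305867-34316674. All 10 gene identifiers in the files were those of the GENCODE vM21 annotation, where all 10 are protein coding. The RefSeq promoter table (GRCm38.p6, 250 bases before to 50 after a start) held 7 of the 10, in 8 windows. The stretches below are shown because the same arrangement recurs in members of different role. Capitals mark letters CNNNNAAC, the kind of stretch found at the start of an X box, and GATTGG, the Y box letters read by NF-Y.
H2-Aa (chr17:34287861-34287913, minus strand): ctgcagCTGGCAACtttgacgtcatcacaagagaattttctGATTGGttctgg
H2-Eb1 (chr17:34305767-34305818, plus strand): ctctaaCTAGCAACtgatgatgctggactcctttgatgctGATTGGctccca
H2-DMb1 (chr17:34153088-34153140, plus strand): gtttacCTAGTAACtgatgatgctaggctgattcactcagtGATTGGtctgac
H2-DMb2 (chr17:34145117-34145169, plus strand): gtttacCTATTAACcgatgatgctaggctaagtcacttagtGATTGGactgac
H2-Oa (chr17:34092294-34092346, plus strand): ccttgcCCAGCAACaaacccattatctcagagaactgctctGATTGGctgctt
H2-Ob (chr17:34238809-34238858, plus strand): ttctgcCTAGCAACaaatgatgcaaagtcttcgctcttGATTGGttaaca
GATTGG on either strand was present in 7 of the 8 windows and in at least 1 window of each of the 7 genes, against 16.1% of all 32851 windows in the table. CNNNNAAC followed by GATTGG after 20 to 32 bases was present in 6 of the 7 genes, all but H2-DMa, against 0.6% of all windows. In the 6, the Y letters began 44 to 91 bases before the RefSeq start of the window. That start can differ from the first base of the gene positions given above. The H2-DMb1 and H2-DMb2 stretches lie inside those positions, and the H2-Oa stretch crosses the first base of its gene. These letters were chosen after the windows had been read, and a match is a description of the sequence only.

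Before the filters the libraries held 4014 to 6696 barcodes and 33390225 to 64766718 UMIs (unique molecules counted). After them 19340 cells were kept, 3597 to 5639 per library, with a median of 6159 to 9156 UMIs per cell. Of 22343 distinct barcode sequences, 298 occurred in more than 1 library. Cells were assigned to types by lists of marker genes that contain none of the 10 members, and are called "like" that type. In all, 3183 cells (16.5%) met no gate, and they held 18.2 to 27.5% of the class II chain UMIs of a library. Phagocytes with markers of more than 1 of the macrophage, monocyte and type 2 dendritic lists were kept as a group of their own, called mixed phagocytes. In 16 of the 17 gated types at least 5 of the type's markers were highest in that type. Monocyte-like cells were the exception, with 4 of 7. The same markers set the gates, so this count describes the gates and is no independent check of them. Siglec1 had 190 UMIs in HFD DTR, 51 in HFD WT, 113 in ND DTR and 5 in ND WT. It was thus higher in the libraries labelled DTR, against the direction that loss of CD169+ cells would give. Macrophage-like cells with at least 2 markers of resident macrophages went the way of the labels, with 1 in HFD DTR, 59 in HFD WT, 2 in ND DTR and 7 in ND WT. DTR and WT below mean the libraries so labelled. A library's label also rests on the order of the deposited aggregation list.

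The surface chains were highest in dendritic cells. Levels are given in CPM, the UMIs of a gene per 1000000 UMIs summed over the cells of a type in a library. Since 1 UMI stands for 1 molecule tagged at its 3′ end, levels were not divided by gene length. Type 2 conventional dendritic-like cells (cDC2-like), which mainly present to CD4+ T cells, numbered 64 in HFD DTR, 192 in HFD WT, 72 in ND DTR and 303 in ND WT. In them H2-Aa, the I-A alpha chain, had 11089.9 CPM in HFD DTR, 16242 in HFD WT, 12453 in ND DTR and 14643 in ND WT. H2-Ab1, the I-A beta chain, had 10261 CPM in HFD DTR, 14497 in HFD WT, 11961 in ND DTR and 13961 in ND WT. In these cells the WT libraries were above the DTR libraries for both chains. Type 1 conventional dendritic-like cells (cDC1-like), specialised in cross-presentation, numbered 143 in HFD DTR, 206 in HFD WT, 93 in ND DTR and 257 in ND WT. In them H2-Aa had 12959.6 CPM in HFD DTR, 13078 in HFD WT, 12048 in ND DTR and 11924 in ND WT. Here the libraries lay close together. H2-Eb1, the I-E beta chain, ranged over the 4 libraries from 9308 to 12082 CPM in cDC2-like and from 9858 to 10638 CPM in cDC1-like cells.

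Below the conventional dendritic cells came mixed phagocytes, macrophage-like, migratory dendritic-like, B-like and monocyte-like cells. Their ranges overlapped, except those of B-like and monocyte-like cells. The 3 chains summed to 7983 to 22897 CPM in mixed phagocytes, 4797 to 19791 CPM in macrophage-like cells and 9385 to 23530.2 CPM in migratory dendritic-like cells, the cells that carry antigen to lymph nodes. B-like cells held 10842 to 14837 CPM, a narrower range than these 3 groups. Monocyte-like cells, with at least 20 cells only in the DTR libraries, held 5579.9 to 9901 CPM, and plasmacytoid dendritic-like cells (pDC-like), the main makers of type I interferon, held 6049 to 7656 CPM in the 3 libraries with at least 20 of them. Plasma-like cells, the antibody-secreting descendants of B cells, held 3893 CPM in HFD WT and 928 in ND WT, below B-like cells in both libraries. In every other gated type with at least 20 cells, the lowest library held 336 CPM or less.

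**Figure D1:**
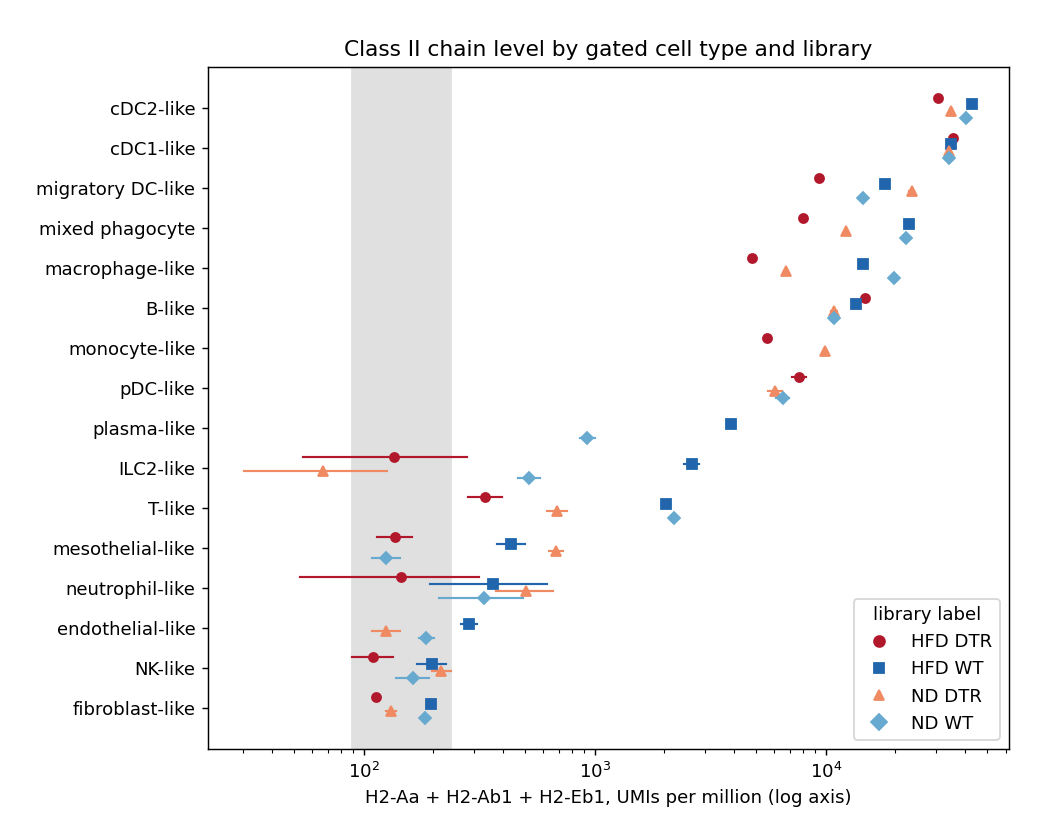
Summed class II chains (H2-Aa, H2-Ab1, H2-Eb1) in CPM, on a log axis, for each gated cell type with at least 20 cells in a library; points are libraries, lines are 95% counting intervals, and the grey band spans the intervals of NK-like cells. cDC2-like and cDC1-like cells stand at 30659 or more in each library, while NK-like, endothelial-like and fibroblast-like cells stand at 286 or less.

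Cd74, which chaperones the chains and guides them to the endosome, followed them, but not in a fixed proportion. Its gene lies on the plus strand of chromosome 18, from 60803848 to 60812652. In cDC2-like cells Cd74 had 26300.0 CPM in HFD DTR, 38713 in HFD WT, 30055 in ND DTR and 36327 in ND WT. In B-like cells it had 18759 CPM in HFD DTR, 17993 in HFD WT, 14676 in ND DTR and 13787 in ND WT. B-like cells held more Cd74 than macrophage-like cells of the same library in 3 of 4 libraries. The ratio of Cd74 UMIs to summed chain UMIs was 0.79 to 0.883 over the libraries in cDC1-like and 0.858 to 0.904 in cDC2-like cells. It was 0.919 to 1.11 in macrophage-like, 1.16 to 1.27 in monocyte-like, 1.26 to 1.35 in B-like and 1.31 to 1.52 in pDC-like cells. The ranges of the conventional dendritic cells did not overlap with those of B-like, monocyte-like and pDC-like cells. In plasma-like cells the ratio was higher than in B-like cells of the same library, 1.6 (1.52 to 1.69) in HFD WT and 3.48 (3.2 to 3.79) in ND WT.

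Ciita, the transactivator, lies on the plus strand of chromosome 16, from 10480059 to 10528418, and was counted at low levels. In B-like cells it had 122 CPM in HFD DTR, 78.2 in HFD WT, 88.5 in ND DTR and 39.7 in ND WT. In cDC2-like cells it had 104 CPM in HFD DTR, 52.9 in HFD WT, 99.8 in ND DTR and 52.7 in ND WT. The DTR library was the higher one in each diet in both types. cDC1-like cells had 44.2 to 60.1 CPM, although their chains were above those of B-like cells. Per 1000 chain UMIs there were 3.64 to 8.2 Ciita UMIs in B-like cells, 1.23 to 3.41 in cDC2-like, 1.27 to 1.69 in cDC1-like and 0.751 to 2.77 in migratory dendritic-like cells. The order of cell types by Ciita was not their order by chains. Natural killer-like and neutrophil-like cells had no Ciita UMI in any library. With 0 UMIs the limit for natural killer-like cells, 3 UMIs of the total, was 1.51 to 3.4 CPM. The neutrophil-like gates held few UMIs, so that 2 UMIs of H2-Aa stood for 48.3 CPM in HFD DTR. Their lack of Ciita UMIs therefore says little.

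In single cells Ciita was sparse. Each cell was thinned to 2000 UMIs, and shallower cells were left out. Of cDC2-like cells, 22.6% (12.9 to 35%) in HFD DTR, 9.42% (5.68 to 14.5%) in HFD WT, 22.9% (13.7 to 34.4%) in ND DTR and 11.1% (7.77 to 15.2%) in ND WT then had a Ciita UMI. Of cDC1-like cells, 11.2% (6.53 to 17.5%) in HFD DTR, 7.88% (4.57 to 12.5%) in HFD WT, 7.69% (3.15 to 15.2%) in ND DTR and 9.38% (6.1 to 13.6%) in ND WT had one. The cDC2-like shares were higher in the DTR libraries, with intervals that overlapped those of WT at their edges, and the cDC1-like shares overlapped throughout. Among cDC2-like cells, 2 in HFD DTR, 1 in HFD WT, 2 in ND DTR and 6 in ND WT were too shallow, and among NK-like cells 49 in HFD DTR, 32 in HFD WT, 26 in ND DTR and 13 in ND WT. Without thinning the cDC2-like shares were 42.2% in HFD DTR, 32.8% in HFD WT, 38.9% in ND DTR and 32.3% in ND WT. In natural killer-like cells (NK-like), which should lack the gene, none of 168 cells in HFD DTR, 238 cells in HFD WT, 416 cells in ND DTR and 207 cells in ND WT had one.

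The H2-DM beta chain was used in 2 forms that divided the cell types. In B-like cells H2-DMb2 had 739.7 CPM in HFD DTR, 749 in HFD WT, 526 in ND DTR and 443 in ND WT. H2-DMb1 had 219 CPM in HFD DTR, 187 in HFD WT, 258 in ND DTR and 146 in ND WT there, below H2-DMb2 in each library. In cDC1-like cells the order was turned, with H2-DMb2 at 66.3 to 114 CPM and H2-DMb1 at 1146 to 1489 CPM. The ratio of H2-DMb2 to H2-DMb1 UMIs in B-like cells was 3.38 (2.41 to 4.82) in HFD DTR, 4 (3.38 to 4.75) in HFD WT, 2.04 (1.6 to 2.62) in ND DTR and 3.03 (2.65 to 3.48) in ND WT. It was 0.153 to 0.241 in cDC2-like and 0.0559 to 0.0768 in cDC1-like cells. It was 0.0313 to 0.231 in mixed phagocytes, 0.0242 to 0.063 in macrophage-like and 0.0163 to 0.0375 in monocyte-like cells. Migratory dendritic-like cells stood between, at 0.9 to 1.33. The genes are near copies: 369 stretches of 50 bases were found in transcripts of both, 22.7% of those of H2-DMb1 and 21.2% of those of H2-DMb2, and their levels are uncertain because reads may be divided between them. Within the last 500 bases, where 3′ tags fall, 27.4% of H2-DMb1 stretches and 0% of H2-DMb2 stretches occurred in the other gene.

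H2-DMa, the alpha chain of the editor, was highest in conventional dendritic cells (716 to 1092 CPM in cDC2-like, 896 to 1060.4 CPM in cDC1-like) and in mixed phagocytes (362 to 1024 CPM). Migratory dendritic-like cells held 88.4 CPM in HFD DTR, 172 in HFD WT, 199 in ND DTR and 125 in ND WT, below macrophage-like cells of the same library in 4 of 4 libraries, although their chains were the higher in 3 of the 4. For each chain UMI, the 3 H2-DM genes together had 0.0169 to 0.0283 UMIs in migratory dendritic-like cells, against 0.0561 to 0.0763 in cDC2-like, 0.0649 to 0.0747 in cDC1-like and 0.0909 to 0.112 in B-like cells. The range of the migratory cells lay below and apart from those 3. H2-Eb2, a beta chain gene that is not a member, had 37.2 CPM in HFD DTR, 112 in HFD WT, 128 in ND DTR and 169 in ND WT in these cells, above B-like cells in every library but HFD DTR. It had 24.5 to 38.9 CPM in B-like cells and at most 7.03 CPM in cDC2-like cells. Migratory dendritic-like cells numbered 60 in HFD DTR, 46 in HFD WT, 29 in ND DTR and 80 in ND WT.

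The 2 chains of H2-O did not travel together. H2-Ob, the beta chain, was highest in B-like cells, where it had 189.8 CPM in HFD DTR, 313 in HFD WT, 224 in ND DTR and 208 in ND WT, followed by cDC1-like (123 to 159.8 CPM) and cDC2-like cells (56.2 to 89 CPM). H2-Oa, the alpha chain, had 224 CPM in HFD DTR, 239 in HFD WT, 128 in ND DTR and 127 in ND WT in B-like cells. In cDC1-like cells it ranged over 141 to 211 CPM. In pDC-like cells it had 233 CPM in HFD DTR, 208 in ND DTR and 92.8 in ND WT. In pDC-like cells (37 in HFD DTR, 24 in ND DTR and 23 in ND WT) H2-Ob rested on 1 UMI in each of these libraries, against 27, 26 and 14 UMIs of H2-Oa. Group 2 innate lymphoid-like cells (ILC2-like), makers of type 2 cytokines in fat, showed the same pattern and numbered 25 in HFD DTR, 76 in HFD WT, 43 in ND DTR and 153 in ND WT. Their H2-Oa had 155 CPM (67.1 to 306) in HFD DTR, 92.4 (58.5 to 139) in HFD WT, 126 (73.4 to 202) in ND DTR and 58.5 (41.2 to 80.7) in ND WT. Their H2-Ob had 1 UMI in HFD WT, 1 in ND WT and 0 in both DTR libraries. Macrophage-like cells were low in both, with at most 4.75 CPM of H2-Oa and 9.47 CPM of H2-Ob. H2-Oa overlaps BC051537, annotated on the opposite strand, so reads of both cannot be told apart unless counting used strand, which the sources used here do not state. Ciita and H2-Eb1 likewise overlap genes on the opposite strand, Dexi and Gm20513, and carry the same limit.

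**Figure D2:**
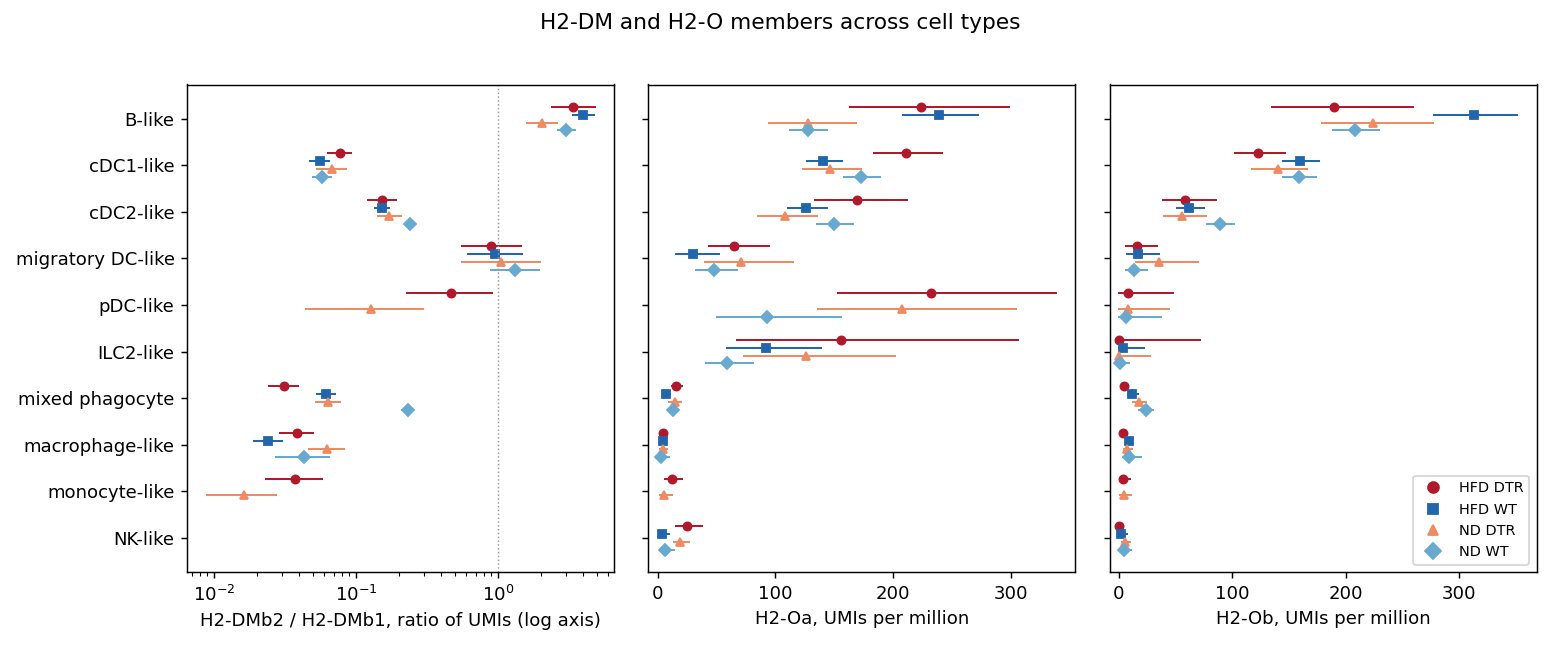
Left, ratio of H2-DMb2 to H2-DMb1 UMIs on a log axis (ratios of 0, or from under 20 UMIs, are left out); middle and right, H2-Oa and H2-Ob in CPM; points are libraries with at least 20 cells, lines are 95% counting intervals. B-like cells are the only type shown with a ratio above 1 in every library, and pDC-like and ILC2-like cells hold H2-Oa with H2-Ob at or near 0.

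Droplets carry free RNA, so a low level in a cell is not by itself expression. NK-like cells, lymphocytes that are not professional presenters, gave the level for comparison. Their summed chains stood at 109.9 CPM (89.1 to 134) in HFD DTR, 197 (170.0 to 228) in HFD WT, 217 (197 to 238) in ND DTR and 164 (139 to 192) in ND WT. Of 42 combinations of cell type and library with at least 50 cells, 34 had a chain interval wholly above that of NK-like cells of the same library. The professional types were above it in every library, by 31 to 121-fold in macrophage-like and 49.96 to 135-fold in B-like cells. The folds were 158 to 324-fold in cDC1-like and 161 to 279-fold in cDC2-like cells. Fibroblast-like cells, at 113 CPM in HFD DTR, 196 in HFD WT, 131 in ND DTR and 185 in ND WT, were above it in none of the 4 libraries. Endothelial-like cells were above it in HFD WT alone of the 3 libraries with at least 50 cells, with 286 CPM (265 to 309).

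T-like cells were above the NK-like level in 4 of 4 libraries. ILC2-like cells were above it in both WT libraries, neutrophil-like cells in both normal diet libraries and mesothelial-like cells in ND DTR. Gates under 50 cells were not compared. These were ILC2-like cells in both DTR libraries, neutrophil-like cells in HFD WT and mesothelial-like cells in both high fat diet libraries, so no pattern of genotype or diet is read from them. In T-like cells, and in ILC2-like cells of the WT libraries, few cells carried most of the UMIs. T-like cells had 336 CPM in HFD DTR, 2038 in HFD WT, 689 in ND DTR and 2204 in ND WT. The 5% of T-like cells with the most chain UMIs held, of all chain UMIs in T-like cells, 82.9% in HFD DTR, 93% in HFD WT, 93.8% in ND DTR and 94.5% in ND WT. In NK-like cells the same share was 59.8% in HFD DTR, 33% in HFD WT, 71% in ND DTR and 42.8% in ND WT. In fibroblast-like cells it was 58.9% in HFD DTR, 52.8% in HFD WT, 61.4% in ND DTR and 43% in ND WT. The NK-like level itself thus rested in large part on few cells. The other T-like cells had 63.6 CPM in HFD DTR, 171 in HFD WT, 56.9 in ND DTR and 139.9 in ND WT. Taken the same way, the other NK-like cells had 50.1 CPM in HFD DTR, 142 in HFD WT, 68.1 in ND DTR and 103 in ND WT. The other fibroblast-like cells had 49.9 CPM in HFD DTR, 98.6 in HFD WT, 54.3 in ND DTR and 113 in ND WT. Outside the top cells the 3 types thus lay within 2-fold of each other in each library, and the DTR library was below the WT library of its diet in all 3. ILC2-like cells had 136 CPM in HFD DTR, 2630.1 in HFD WT, 66.7 in ND DTR and 520.4 in ND WT. In HFD WT the top 5% of ILC2-like cells, 4 of 76, held 96.3%. Mesothelial-like cells, the lining of the fat pad, numbered 47 in HFD DTR, 30 in HFD WT, 78 in ND DTR and 132 in ND WT, and had 137 CPM in HFD DTR, 436 in HFD WT, 679.9 in ND DTR and 125 in ND WT. In ND DTR the mesothelial-like cells outside the top 5% still had 331 CPM, against 104 CPM in ND WT, and Ciita rested there on 1 UMI. In T-like cells as a whole the genes Lyz2, C1qa, C1qb and C1qc of phagocytes summed to 48.3 CPM in HFD DTR, 576 in HFD WT, 104 in ND DTR and 555 in ND WT, higher in the same WT libraries. Their part in the chain level was not tested.

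H2-DMa and H2-Oa, and H2-Ob and H2-DMb1 in 3 of 4 libraries each, were at higher percentages than H2-Aa in NK-like cells. RNA from 1 source keeps its genes in 1 proportion, so each member's NK-like level was set against its average over all cells of the library. In NK-like cells H2-Aa was at 4.58% in HFD DTR, 2.41% in HFD WT, 4.22% in ND DTR and 1.7% in ND WT of that average. Cd74 was at 3.09% in HFD DTR, 1.46% in HFD WT, 3.54% in ND DTR and 1.4% in ND WT. Phagocyte RNA gave like values, with Lyz2 and the C1q genes at 1.47% in HFD DTR, 1.63% in HFD WT, 3.65% in ND DTR and 0.994% in ND WT. H2-DMa was at 40.1% in HFD DTR, 10.1% in HFD WT, 22.1% in ND DTR and 8.31% in ND WT, higher than H2-Aa in 4 of 4 libraries. Its level was 41.9 CPM (29.5 to 57.8) in HFD DTR, 24.5 (15.6 to 36.8) in HFD WT, 33.7 (26.1 to 42.8) in ND DTR and 30.1 (20.03 to 43.6) in ND WT. H2-Oa was at 214% in HFD DTR, 12.9% in HFD WT, 111% in ND DTR and 14.7% in ND WT. Its level was 24.9 CPM (15.6 to 37.7) in HFD DTR, 3.2 (0.66 to 9.35) in HFD WT, 19.1 (13.5 to 26.3) in ND DTR and 6.46 (2.37 to 14.1) in ND WT. H2-Oa was higher in the DTR library of each diet. With high fat diet, DTR over WT gave 2.96 (1.23 to 5.34) (log2), on 22 UMIs in HFD DTR and 3 in HFD WT. The normal diet ratio was 1.57 (0.31 to 3.1), on 38 UMIs in ND DTR and 6 in ND WT. H2-Ob was at 0% in HFD DTR, 8.45% in HFD WT, 40.9% in ND DTR and 10.6% in ND WT, above H2-Aa in the 3 libraries in which it was detected. These rest on 0 UMIs in HFD DTR, 2 in HFD WT, 11 in ND DTR and 4 in ND WT. H2-DMb1 was closer to the chains, at 4.91% in HFD DTR, 3.4% in HFD WT, 5.96% in ND DTR and 1.5% in ND WT. It was below H2-Aa in ND WT alone, and rested on 7 UMIs in HFD DTR, 11 in HFD WT, 28 in ND DTR and 5 in ND WT. Its counting interval overlapped that of H2-Aa in every library, so H2-DMb1 was not set apart from H2-Aa. H2-Oa, H2-Ob and H2-DMb1 lie under the 50 UMIs asked of a gene in the genotype comparisons below. H2-DMa overlaps Brd2, a widely expressed gene on the opposite strand, so its counts in lymphocytes carry the same doubt as those of H2-Oa. It also overlaps CR974462.3, a gene on its own strand. In other cells H2-DMa had 3.43 to 4.4 CPM (fibroblast-like), 4.01 to 7.34 CPM (endothelial-like) and 1.16 to 27.3 CPM (mesothelial-like). The part of the overlapping genes was not tested.

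**Figure D3:**
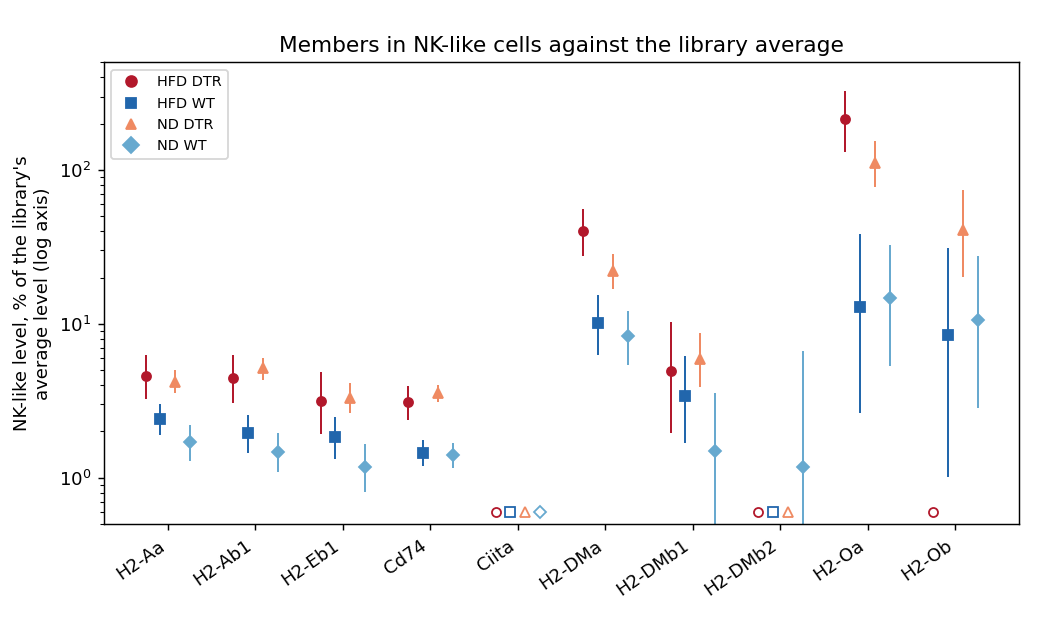
Level of each member in NK-like cells as a percentage of the average over all kept cells of the same library, on a log axis; points are libraries, lines are 95% counting intervals, and open symbols at the foot mark 0 UMIs. The surface chains and Cd74 lie at low percentages in all 4 libraries, while H2-DMa and H2-Oa, and H2-Ob where it was detected, lie above H2-Aa and Cd74. H2-DMb1 lies above H2-Aa in every library but ND WT.

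The comparison of DTR with WT asked how the cells that the sort let through differed where resident macrophages were meant to be removed. Most members were lower in the DTR library in macrophage-like cells and mixed phagocytes, while the chains of cDC1-like and B-like cells were nearly level. Over these 4 types and cDC2-like cells, 5 in all, 12 of 49 member and cell type pairs measured in high fat diet were lower by 2-fold or more in the DTR library and 1 was higher. Over all measured genes in the same 5 types, 3.28% of pairs were lower and 7.71% higher. In normal diet 9 of 48 member pairs were lower and 1 higher, against 3.62% and 7.63% over all genes. A pair counted as measured with at least 50 UMIs over both libraries. All of the lower pairs were in macrophage-like cells and mixed phagocytes.

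Macrophage-like cells, which take up dead cells and debris, numbered 371 in HFD DTR, 389 in HFD WT, 136 in ND DTR and 113 in ND WT. In them H2-Aa had 1899 CPM in HFD DTR, 5892 in HFD WT, 2596 in ND DTR and 7611 in ND WT. H2-Eb1 had 1320.2 CPM in HFD DTR, 4163 in HFD WT, 1892 in ND DTR and 5689 in ND WT. Cd74 had 5340.4 CPM in HFD DTR, 13747 in HFD WT, 6677 in ND DTR and 18179 in ND WT. The DTR libraries were below both WT libraries for all 3 genes, and in each genotype the high fat diet library was the lower one. For the summed chains, DTR over WT gave a log2 ratio of -1.6 (-1.62 to -1.58) with high fat diet, 3.03-fold lower, and -1.56 (-1.59 to -1.52) with normal diet, 2.94-fold lower. The median of all measured genes was shifted towards DTR by 0.24 in high fat and 0.24 in normal diet (log2), and relative to it the chains stood at -1.84 and -1.79. Of the measured members, 5 of 9 were lower by 2-fold or more in high fat diet, where 3.33% of all 9014 measured genes were. In normal diet 7 of 8 were lower, where 3.47% of 6202 genes were.

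Ciita was lower with them. Its level was 16.8 CPM (13.3 to 21) in HFD DTR, 33.6 (29 to 38.6) in HFD WT, 12.6 (8.57 to 17.9) in ND DTR and 58.2 (42.1 to 78.3) in ND WT, from 78 UMIs in HFD DTR, 196 UMIs in HFD WT, 31 UMIs in ND DTR and 43 UMIs in ND WT. Its log2 ratio was -0.997 (-1.39 to -0.61) in high fat diet, just short of 2-fold, and -2.21 (-2.92 to -1.51) in normal diet. Of the editor, H2-DMa had 227 CPM in HFD DTR, 356 in HFD WT, 242 in ND DTR and 615 in ND WT. H2-DMb1 had 347 CPM in HFD DTR, 567 in HFD WT, 349 in ND DTR and 752 in ND WT. In high fat diet their log2 ratios were -0.65 (-0.76 to -0.54) and -0.71 (-0.79 to -0.62), nearer to 0 than those of the chains, with intervals apart from them. In normal diet they were -1.35 (-1.53 to -1.17) and -1.11 (-1.26 to -0.95). H2-DMb2, at 13.4 to 32.5 CPM, had intervals that included 0 in both diets.

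**Figure D4:**
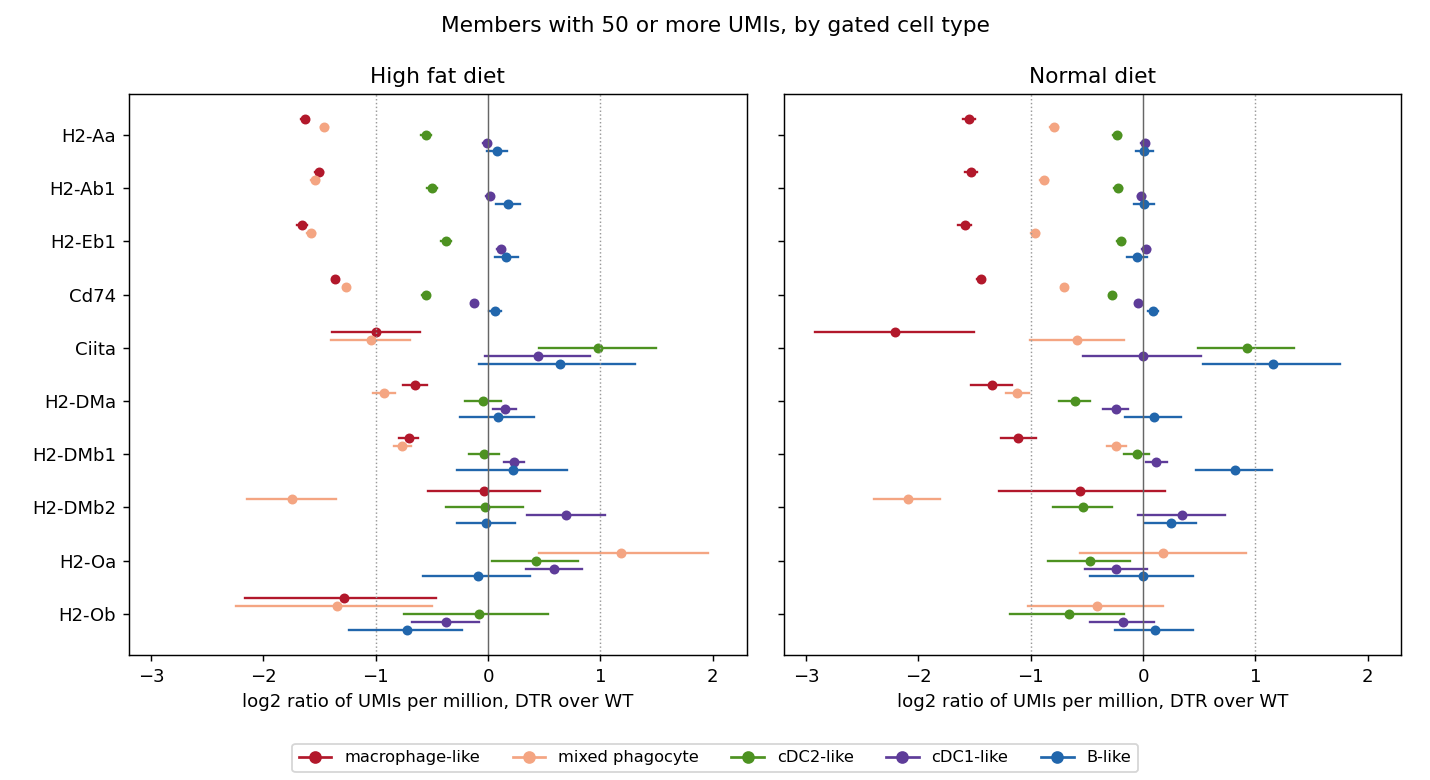
Log2 ratio of CPM, DTR over WT, for each member with at least 50 UMIs over both libraries, in 5 presenting cell types; lines are 95% counting intervals and dotted lines mark 2-fold. Macrophage-like cells and mixed phagocytes lie to the left for the chains and Cd74 in both diets, while cDC1-like and B-like cells lie near 0.

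The difference was also read in single cells. Per 2000 UMIs, the median number of chain UMIs in a macrophage-like cell was 7 in HFD DTR, 39 in HFD WT, 15 in ND DTR and 41 in ND WT, and the upper quartile was 19 in HFD DTR, 62.2 in HFD WT, 30.5 in ND DTR and 58.5 in ND WT. The percentage of cells with no chain UMI was 19.2 in HFD DTR, 3.23 in HFD WT, 13.7 in ND DTR and 1.59 in ND WT. Both DTR libraries had more cells at 0 and lower medians than either WT library. The thinning left out 17 cells in HFD DTR, 17 cells in HFD WT, 5 cells in ND DTR and 50 cells in ND WT. The ND WT gate thus held many shallow cells, and these had a lower chain level, 7357 CPM, than its deeper cells at 20420.5 CPM. With every cell given the same weight, the normal diet log2 ratio of the chains was -0.69 over all cells, short of 2-fold, and -1.19 over cells of 2000 UMIs or more. In high fat diet it was -1.66. The split at 2000 UMIs was chosen after the data were seen.

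**Figure D5:**
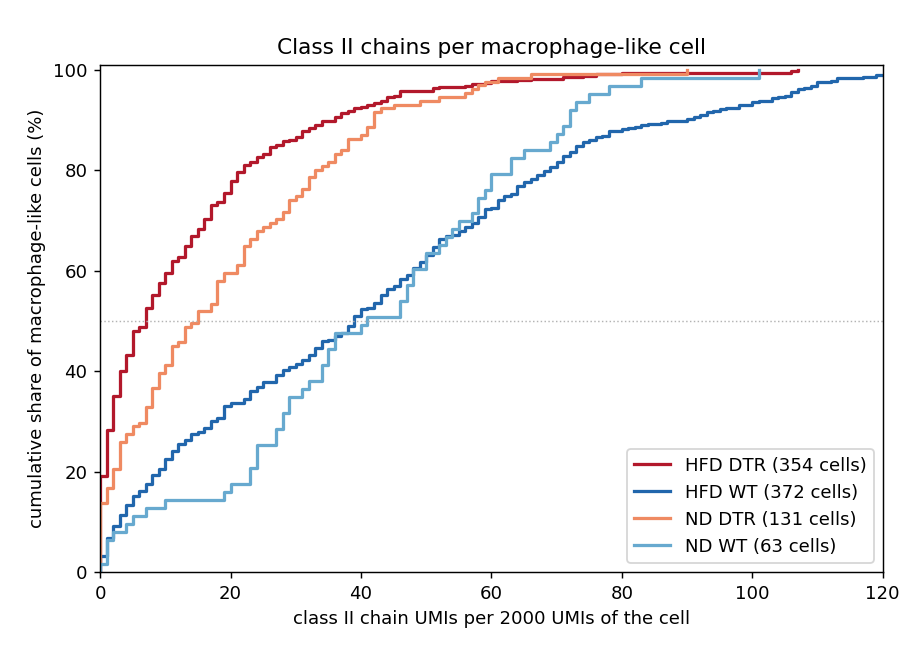
Cumulative share of macrophage-like cells against class II chain UMIs per 2000 UMIs of the cell, by library; cells with fewer than 2000 UMIs are left out. The curves of the DTR libraries rise earlier, with medians of 7 in HFD DTR and 15 in ND DTR, against 39 in HFD WT and 41 in ND WT.

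Macrophage-like cells are of several kinds, so the chains were also read within subsets, chosen by markers after earlier results of these data were known. Cells with at least 3 of 6 lipid-associated macrophage markers (Trem2, Gpnmb, Cd9, Spp1, Lpl, Fabp5) had fewer chains than the rest in every library, with 2474 CPM in HFD DTR, 8399 CPM in HFD WT, 3717 CPM in ND DTR and 10531 CPM in ND WT. The rest had 7066 CPM in HFD DTR, 22296 CPM in HFD WT, 10444 CPM in ND DTR and 22702 CPM in ND WT. Both subsets were lower in the DTR libraries. For the first, the log2 ratio was -1.76 (-1.8 to -1.72) on high fat and -1.5 (-1.58 to -1.42) on normal diet. For the rest it was -1.66 (-1.68 to -1.63) and -1.12 (-1.16 to -1.08). Shares of the lipid-associated subset were 33.7% in HFD DTR, 34.2% in HFD WT, 36.8% in ND DTR and 31.9% in ND WT of macrophage-like cells. Cells with fewer than 2 cell cycle markers had log2 ratios of -1.61 (-1.64 to -1.59) and -1.42 (-1.46 to -1.39). Cells with at least 2 resident macrophage markers (Timd4, Lyve1, Cd163, Folr2, Vsig4) numbered 1 in HFD DTR, 59 in HFD WT, 2 in ND DTR and 7 in ND WT, too few in the DTR libraries to compare. Without them the ratios were -1.61 (-1.63 to -1.59) and -1.57 (-1.6 to -1.53).

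Markers of other phagocytes moved with the result. Type 2 dendritic markers in macrophage-like cells summed to 646 CPM in HFD DTR, 1152 in HFD WT, 767 in ND DTR and 1296 in ND WT, lower in the DTR library of each diet, with 7 of 7 markers detected per library. Macrophage markers summed to 6878 CPM in HFD DTR, 12195 in HFD WT, 7030.3 in ND DTR and 10128 in ND WT, likewise lower in DTR, with 9 of 9 markers detected per library. Monocyte markers summed to 524 CPM in HFD DTR, 401 in HFD WT, 706 in ND DTR and 959 in ND WT, higher in DTR in high fat diet and lower in normal diet, with 7 of 7 markers detected per library. Among macrophage-like cells with no type 2 dendritic marker, the chain log2 ratio was -1.91 (-1.95 to -1.87) on high fat diet. On normal diet it was 0.46 (0.35 to 0.57), the opposite direction, on 50 cells in ND DTR and 42 in ND WT. Among those with at least 1 such marker it was -1.38 (-1.41 to -1.36) and -1.89 (-1.92 to -1.85). The normal diet difference in macrophage-like cells therefore depended on which cells were counted, while the high fat diet difference was past 2-fold in each subset with at least 20 cells a library. The part of these markers in the result was not tested.

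Mixed phagocytes, 427 in HFD DTR, 303 in HFD WT, 222 in ND DTR and 279 in ND WT, also held fewer class II UMIs in DTR. H2-Ab1 had 2751 CPM in HFD DTR, 8013 in HFD WT, 4267 in ND DTR and 7843 in ND WT. Both DTR libraries were below both WT libraries, which were close to each other. The summed chains had log2 ratios of -1.52 (-1.54 to -1.5) on high fat and -0.87 (-0.89 to -0.85) on normal diet. The second was short of 2-fold. Here too all genes were shifted, by 0.19 and 0.18, and relative to that the chains stood at -1.71 and -1.05, both past 2-fold. Of 10 members, 7 (the chains, Cd74, Ciita, H2-DMb2 and H2-Ob) were lower by 2-fold or more in high fat diet, against 3.45% of all genes. In normal diet 2 were, H2-DMa and H2-DMb2, against 5.09%. H2-DMb2 had 19.9 CPM in HFD DTR, 66.7 in HFD WT, 52.9 in ND DTR and 226 in ND WT. ND WT was far above the other libraries, and the log2 ratios were -1.75 (-2.15 to -1.36) and -2.1 (-2.39 to -1.81). In high fat diet H2-Oa went the other way at 1.18 (0.45 to 1.96), on 60 UMIs in HFD DTR and 22 in HFD WT, where 9.55% of all genes were higher by 2-fold or more. In this group too the markers moved. Type 2 dendritic markers summed to 1052 CPM in HFD DTR, 1725 in HFD WT, 1012 in ND DTR and 2014 in ND WT, with 7 of 7 markers detected per library. Macrophage markers summed to 2498 CPM in HFD DTR, 1742 in HFD WT, 2196 in ND DTR and 1028 in ND WT, with 9 of 9 markers detected per library. A difference in the makeup of the group and one in level per cell cannot be told apart. Monocyte-like cells, 174 in HFD DTR and 142 in ND DTR, were too few in the WT libraries to compare by genotype. Their chains stood at 5579.9 CPM (5436 to 5727) in HFD DTR and 9901 (9713 to 10091) in ND DTR, a log2 ratio of high fat over normal diet of -0.83 (-0.87 to -0.78).

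The chains of cDC1-like cells were nearly level between DTR and WT. Their log2 ratios were 0.03 (0.01 to 0.05) on high fat and 0.01 (-0.01 to 0.03) on normal diet, against shifts over all genes of 0.1 and 0.14, and no member passed 2-fold in either. In cDC2-like cells the chains were lower in DTR by less than 2-fold, with -0.48 (-0.51 to -0.46) and -0.22 (-0.24 to -0.2), where all genes were shifted by 0.13 and 0.15. With every cell given the same weight these ratios were -0.17 and -0.04. Cd74 had -0.56 (-0.59 to -0.53) and -0.27 (-0.29 to -0.25). Ciita went the opposite way in cDC2-like cells, with 0.98 (0.45 to 1.5) and 0.92 (0.49 to 1.34), intervals above 0 in both diets. Lipid-associated macrophage markers in the cDC2-like gate summed to 2495 CPM in HFD DTR, 751 in HFD WT, 1967 in ND DTR and 621 in ND WT, higher in DTR in both diets, with 6 of 6 markers detected per library. Their part was not tested. B-like cells numbered 61 in HFD DTR, 211 in HFD WT, 70 in ND DTR and 286 in ND WT, and their chains had ratios of 0.13 (0.07 to 0.19) and -0.01 (-0.06 to 0.04). In B-like cells Ciita had 0.64 (-0.08 to 1.31) on high fat diet, with an interval that included 0. On normal diet it had 1.16 (0.53 to 1.75), from 34 UMIs in ND DTR and 78 in ND WT. It was the 1 member of 10 higher by 2-fold or more, where 3.04% of all genes were. Over all cells of a library, H2-Aa stood at 1015 CPM in HFD DTR, 3631 CPM in HFD WT, 1883 CPM in ND DTR and 4041 CPM in ND WT, sums in which fewer presenting cells and less RNA in each cannot be told apart.

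Fewer pairs passed 2-fold between the diets. In the comparison of high fat with normal diet, 2 of 48 measured pairs were lower by 2-fold or more in the DTR libraries and 2 of 49 in the WT libraries, and none was higher. Over all measured genes 1.39% of pairs were lower and 3.05% higher in DTR, and 1.77% lower and 2.97% higher in WT. With every cell given the same weight, 1 was lower and 1 higher in DTR, and 1 lower and 2 higher in WT. With 1 more marker needed in a gate, 1 was higher in WT. The comparisons share libraries with those of genotype. On summed counts H2-DMb2 in mixed phagocytes was among the lower pairs in both, with log2 ratios of high fat over normal diet of -1.41 (-1.85 to -0.98) in DTR and -1.76 (-2.0 to -1.53) in WT, where 1.47% and 1.65% of all genes were lower by as much. The others were H2-Ob in mixed phagocytes in DTR at -1.9 (-2.79 to -1.06), and H2-DMb2 in macrophage-like cells in WT at -1.24 (-1.92 to -0.52), where 3.19% of genes were lower. The chains of macrophage-like cells were lower in high fat diet in both genotypes by less than 2-fold, at -0.49 (-0.52 to -0.46) in DTR and -0.44 (-0.47 to -0.42) in WT. B-like cells went the other way, at 0.45 (0.38 to 0.52) in DTR and 0.31 (0.28 to 0.34) in WT. Genes of the editor and its inhibitor were mixed. In B-like cells H2-Oa had 0.81 (0.2 to 1.42) in DTR and 0.91 (0.64 to 1.17) in WT, and H2-DMb2 had 0.49 (0.18 to 0.8) and 0.76 (0.61 to 0.9). H2-DMb1 had -0.23 (-0.78 to 0.29) in DTR and 0.36 (0.08 to 0.63) in WT. H2-Ob had -0.24 (-0.82 to 0.32) and 0.59 (0.36 to 0.81), and H2-DMa 0.11 (-0.27 to 0.48) and 0.11 (-0.06 to 0.29). The intervals of these 3 included 0 in DTR, and that of H2-DMa did in WT too. The chains of cDC1-like cells were nearly level, at 0.05 (0.03 to 0.08) and 0.03 (0.02 to 0.04).

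The lists of genes that act around class II are short, so their counts are read beside the shares over all genes. Of 9 listed genes of antigen processing, 0 of 8 measured were lower by 2-fold or more and 0 higher in macrophage-like cells of HFD DTR, where 3.33% and 9.78% of all genes were. Their median log2 ratio was -0.15, against 0.24 over all genes. In ND DTR 1 of 7 was higher, with a median of 0.68 against 0.24, where 11.8% of all genes were. That gene was Ctsl, a lysosomal cysteine protease, with 3488 CPM in ND DTR and 1155 CPM in ND WT, a log2 ratio of 1.59 (1.49 to 1.7). Ctss, the protease that trims the invariant chain in dendritic and B cells, had 1709.9 CPM in ND DTR and 1612 CPM in ND WT, a log2 ratio of 0.09 (-0.01 to 0.18). Ctsh, a lysosomal aminopeptidase, had 305 CPM in ND DTR and 530.1 CPM in ND WT, a log2 ratio of -0.8 (-0.97 to -0.62). Among macrophage-like cells on high fat diet the lowest ratio was that of March1, a ubiquitin ligase that takes class II off the surface, with 11.9 CPM in HFD DTR and 18.5 CPM in HFD WT, a log2 ratio of -0.64 (-1.14 to -0.16). In cDC2-like cells 4 of 7 were higher and 1 lower in high fat diet, and 4 of 8 higher in normal diet, where 8.96%, 4.45% and 8.62% of all genes were. The higher ones were Ctsl, Ctsb, Ctsd and Lgmn, lysosomal proteases that macrophages express strongly. There Ctsl had 694 CPM in HFD DTR and 36.2 CPM in HFD WT, a log2 ratio of 4.26 (3.87 to 4.67). The lower one was Sppl2a, which clears the last invariant chain fragment from the membrane, with 60.9 CPM in HFD DTR and 131 CPM in HFD WT, a log2 ratio of -1.1 (-1.72 to -0.53). cDC1-like cells showed 3 of 8 and 4 of 8 higher, against 3.28% and 3.64% of all genes, namely Ctsl, Ctsd and Lgmn, and Ctsb in normal diet. Macrophage markers summed to 98.9 CPM in HFD DTR, 48.3 in HFD WT, 104 in ND DTR and 11.6 in ND WT in cDC1-like cells (7 to 8 of 9 markers detected per library) and to 587 CPM in HFD DTR, 419 in HFD WT, 694 in ND DTR and 339 in ND WT in cDC2-like cells (8 of 9 markers detected per library). They were higher in DTR in each pair, and their part was not tested. In mixed phagocytes 3 of 8 and 4 of 8 were higher, where 9.55% and 9.45% of all genes were. In B-like cells 0 of 8 were higher in high fat diet, and 4 of 9 in normal diet, where 3.04% of all genes were. These 4 were again Ctsl, Ctsb, Ctsd and Lgmn. In B-like cells Ctsl had 112 CPM in ND DTR and 16.3 CPM in ND WT, a log2 ratio of 2.78 (2.09 to 3.49). Ctsb had 513 CPM in ND DTR and 138 CPM in ND WT, a log2 ratio of 1.9 (1.63 to 2.17). Macrophage markers in B-like cells summed to 107 CPM in HFD DTR, 79.2 in HFD WT, 534 in ND DTR and 86.1 in ND WT (4 to 9 of 9 markers detected per library), highest in ND DTR, and their part was not tested.

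Of the listed promoter factors and inducers of class II reported here, Irf1 in B-like cells was lower by 2-fold or more in DTR, and no other was in these 5 cell types in either diet. Over all genes and the 5 types the share of such pairs was 3.28% in high fat and 3.62% in normal diet. The share of pairs higher by 2-fold or more was 7.71% in high fat and 7.63% in normal diet. In B-like cells Irf1, an interferon regulatory factor, had 24.3 CPM in HFD DTR and 54.6 CPM in HFD WT, on 5 and 51 UMIs. Its log2 ratio was -1.17 (-2.85 to 0.15), an interval that includes 0, where 4.04% of all genes were lower by 2-fold or more. Nfyc, a subunit of NF-Y, had 52.2 CPM in HFD DTR and 26.4 CPM in HFD WT, a log2 ratio of 0.98 (0.69 to 1.29) in macrophage-like cells. On normal diet it had 38.6 CPM in ND DTR and 13.5 CPM in ND WT, a log2 ratio of 1.51 (0.57 to 2.62), past 2-fold. Of all genes in macrophage-like cells, 11.8% were higher by 2-fold or more on normal diet. Irf8, an interferon regulatory factor of dendritic cells, had 139.5 CPM in ND DTR and 64.9 CPM in ND WT, a log2 ratio of 1.1 (0.66 to 1.57) in the same cells. Creb1, which binds next to RFX, had 47.2 CPM in ND DTR and 78.4 CPM in ND WT, a log2 ratio of -0.73 (-1.2 to -0.25). Ifngr1, a chain of the interferon-gamma receptor, had 100.8 CPM in HFD DTR and 135 CPM in HFD WT, a log2 ratio of -0.42 (-0.59 to -0.25). In mixed phagocytes Irf8 was higher by 2-fold or more in both diets, with 96.8 CPM in HFD DTR and 41.5 CPM in HFD WT, a log2 ratio of 1.22 (0.93 to 1.52), and 171 CPM in ND DTR and 22.6 CPM in ND WT, a log2 ratio of 2.92 (2.53 to 3.34). Rfxap, an RFX subunit, was higher there in normal diet, with 23.6 CPM in ND DTR and 8.88 CPM in ND WT, a log2 ratio of 1.41 (0.69 to 2.17). Of all genes in mixed phagocytes, 9.55% were higher by 2-fold or more in high fat and 9.45% in normal diet. In cDC2-like cells Nfyc and Irf1 were higher by 2-fold or more in both diets, Spi1 in high fat diet and Irf8 in normal diet. Of all genes in these cells, 8.96% were higher by as much in high fat and 8.62% in normal diet. There Irf1 had 84.8 CPM in HFD DTR and 21.7 CPM in HFD WT, a log2 ratio of 1.97 (1.29 to 2.65). Of 6 costimulation genes, 3 of 5 were higher in macrophage-like cells of HFD DTR (Cd80, Icosl and Cd274), where 9.78% of all genes were, and 1 of 5 (Icosl) in ND DTR, where 11.8% were. Icosl, the ligand of the T cell costimulatory receptor ICOS, had 58.3 CPM in HFD DTR and 16.4 CPM in HFD WT, a log2 ratio of 1.82 (1.48 to 2.18). Cd86, a ligand of CD28, was on the other side, with 88.5 CPM in HFD DTR and 138 CPM in HFD WT, a log2 ratio of -0.64 (-0.82 to -0.47). In mixed phagocytes Cd80, another CD28 ligand, was lower by 2-fold or more in normal diet, with 69.4 CPM in ND DTR and 149 CPM in ND WT, a log2 ratio of -1.1 (-1.38 to -0.83). In B-like cells 2 of 4 measured were lower by 2-fold or more in normal diet, where 3.12% of all genes were. There Cd80 had 26 CPM in ND DTR and 60.1 CPM in ND WT, a log2 ratio of -1.21 (-2.3 to -0.28), and Cd274, a ligand of the inhibitory receptor PD-1, had 31.2 CPM in ND DTR and 69.3 CPM in ND WT, a log2 ratio of -1.15 (-2.14 to -0.3). Between DTR and WT, no costimulation gene passed 2-fold in cDC1-like or cDC2-like cells in either diet.

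Among 11029 genes with at least 500 UMIs, Cd74 and Ciita had the patterns most like the chains. Over 58 points, each a cell type in a library with at least 20 cells (16 types in all), log2(CPM + 1) of Cd74 had a Pearson correlation of 0.988 with the mean of the 3 chains. The values were 0.952 for Ciita (rank 5 of all genes), 0.909 for H2-DMa, 0.907 for H2-DMb1, 0.88 for H2-DMb2, 0.835 for H2-Ob and 0.627 for H2-Oa (rank 189). H2-Oa was the member least like the chains. The 10 most similar genes outside the set were Fgd2 (0.931), Ly86 (0.91), Rassf4 (0.905), Grk3 (0.899), Pld4 (0.887), Slamf9 (0.886), Gm6377 (0.883), Cd83 (0.881), Pkib (0.869) and Cd180 (0.866). Points of one library share its depth and free RNA, and points of one type share its cells across libraries, so these values describe the table and carry no test.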

How the data were processed

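UMI counts per gene and cell are as deposited by the authors, made with Cell Ranger 3.1.0 on mm10 per the submitters' processing notes; the sources used here do not state whether aggregation subsampled reads. The 32 records are 8 runs of each of 4 libraries, joined to cells by the barcode suffix and the deposited aggregation list. Cells were kept from 300 genes up, if mitochondrial UMIs made up no more than 10%, and doublets called by Scrublet (scanpy 1.11.5; 0.745 to 1.29% of a library) removed. A cell entered a gate with at least 3 markers and 2 more than for any other list; a marker counted from 10% of its 99th percentile among cells that have it. Mixed phagocytes had at least 4 markers over the macrophage, monocyte and type 2 dendritic lists and met no gate. UMIs were summed per gate and library. Exact Poisson, conditional binomial and Clopper-Pearson 95% intervals (scipy 1.17.1) cover counting error only. A gene with 50 or more UMIs over both libraries was measured, and 2-fold was the call. The code was tested on simulated data. All 10 members were named, with list genes taken from the 3 largest and 3 smallest ratios of a comparison or, after their values were seen, from those past 2-fold, and the 10 genes most like the chains. Members and lists were chosen with earlier results of these data known. A gene of these lists is not reported here.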

Additional observations from a re-analysis of the deposited data

Results flagged for a closer look

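In conventional dendritic cells, 6 pairs of values had opposite directions of diet in the libraries labelled DTR and WT, with counting intervals clear of 0 on both sides whether or not the shift of all genes was taken off. The values are log2 ratios of high fat over normal diet. In type 1 conventional dendritic-like cells H2-Eb1 had 0.05 in DTR and -0.03 in WT, H2-DMa had 0.24 in DTR and -0.15 in WT, and H2-Oa had 0.53 in DTR and -0.3 in WT. In type 2 conventional dendritic-like cells H2-Aa had -0.17 in DTR and 0.15 in WT, H2-DMa had 0.28 in DTR and -0.28 in WT, and H2-Oa had 0.65 in DTR and -0.25 in WT. H2-DMa and H2-Oa thus stood higher in high fat diet in DTR and lower in WT in both types. With 1 library per group the difference between genotypes was not tested, and all of these ratios are below 2-fold. For a gene with many UMIs a counting interval can exclude 0 at a very small ratio, as for H2-Eb1. The share of all genes with such opposite directions is not given here, so the 6 pairs are not read as particular to the members. H2-DMa, H2-Oa and H2-Eb1 overlap other annotated genes.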

How the results depend on the processing

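No paired analysis was possible because each group has 1 library, and the numbers in the labels name runs of it; for the same reason no replicate could be left out. Of 194 measured pairs of member and presenting cell type, 27 were past 2-fold. Their direction was the same under every alternative that gave a value. All 27 stayed past 2-fold with doublets kept, with a minimum of 10 UMIs and with only cells of 2000 or more UMIs (added after the data were seen), 26 with median-of-ratios scaling, 25 of 26 with the natural killer-like level subtracted, 23 of 25 with cells of 500 genes or more and a mitochondrial share up to 5%, 23 of 25 with 1 more marker needed, 19 of 19 with a minimum of 200 UMIs, and 16 of 27 with the mean of per-cell CPM. DTR over WT in normal diet, the count of pairs past 2-fold was 10, but 5 with the mean of per-cell CPM. High fat over normal diet, it was 2 in WT, but 1 with a minimum of 200 UMIs. It was 3, all lower, with median-of-ratios scaling and with doublets kept. In WT 1 was lower and 2 higher with the mean of per-cell CPM, and 2 lower and 1 higher with 1 more marker needed. In DTR it was 2, but 3 with a minimum of 10 UMIs and 0 with a minimum of 200 UMIs. It was 1 in DTR with the stricter cell filter and 1 with 1 more marker needed. A minimum of 200 UMIs tests fewer genes; otherwise the cause was not tested. The 34 combinations above the natural killer-like level ranged from 28 to 39. Depth limits Ciita, H2-Oa and H2-Ob, with few UMIs in small gates.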
